A study of Mus musculus with 3 samples.

Results

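The S100 calcium proteins and annexins examined here are 10 mouse genes, taken as the rows of the deposited expression table whose Ensembl IDs map to the symbols S100a1, S100a4, S100a6, S100a10, S100a11, S100a13, Anxa1, Anxa2, Anxa3 and Anxa5. All 10 had a row among the 50043 gene IDs of the table, 6 S100 genes and 4 annexins. All 6 S100 members and Anxa5 lie on mouse chromosome 3, Anxa1 on chromosome 19, Anxa2 on chromosome 9 and Anxa3 on chromosome 5. RNA was sequenced from KH2 mouse embryonic stem cells carrying an inducible knockout of Pold3, the gene of a subunit of the replicative DNA polymerase delta complex. The 3 groups are the passages P0, P1 and P2 of these cells, with 1 library each, and the study asks how the transcriptome differs between them. The labels give the same line and the same inducible knockout for all groups, and leave out the time and agent of induction and the number of clones or dishes behind a library. Passage and time since any induction therefore cannot be told apart, and with 1 library per passage no difference below has a replicate check.

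S100 proteins are small calcium-binding proteins of the EF-hand type that change shape on binding calcium and then attach to target proteins. Annexins bind acidic membrane phospholipids when calcium rises and take part in membrane repair, vesicle traffic and the anchoring of actin at membranes. The families meet in stable complexes: S100A10, which stays in its active shape without calcium, joins with annexin A2, and S100A11 joins with annexin A1. Many of these genes are typical of epithelial and mesenchymal cells rather than of pluripotent cells.

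The P0 library held 23213528 reads, the P1 library 18059914 and the P2 library 22405670. Pold3 itself measured 49.2, 13.03 and 11.6 FPKM (fragments scaled by gene length and library depth) at P0, P1 and P2 and so fell at both later passages, by 1.84 and 1.99 on the log2(FPKM + 1) scale. The stem cell genes Pou5f1, Nanog and Sox2 were at 670 to 746, 165 to 240 and 212 to 274 FPKM, so the labelled cell type carried its defining markers in all 3 libraries. A gene is said to rise or fall when log2(FPKM + 1) differed by 1 or more, and only genes that reached FPKM 1 in either library of a comparison are compared. This scale understates the change of low genes. Intervals are exact 95% intervals on the reads behind 2 libraries and cover counting error only. In bulk RNA, more cells that express a gene and more RNA per cell cannot be told apart.

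Most of the S100 genes and annexins were higher in both later passages than at P0, and none was lower at P1 or P2 by the 2-fold limit. At P1, 3 of the 9 members that could be compared rose (S100a6, Anxa1 and Anxa2), where 4.12% of all genes compared rose and 0.549% fell. At P2, 5 of 8 rose (the same genes with S100a11 and S100a13), where 6.72% of all genes rose and 1.16% fell. S100a13 was under FPKM 1 at P0 and could be compared only through its level in the later libraries, so the filter favoured a rise. The same held for S100a1 at P1, and at P2 S100a1, with a difference of 0.02, was not compared. With a floor of FPKM 5, which leaves both out, 4 of 7 rose at P2, where 512 of 9505 genes compared rose and 87 fell. The median difference of the members was 0.93 at P1 and 1.07 at P2 on the log2(FPKM + 1) scale, beside medians of 0.06 and 0.07 over all genes compared. The members were chosen with earlier results of these data known, so their counts and medians are a description only. With no floor, which brings in S100a1, the members' median at P2 was 1.02. Between P2 and P1 no member passed 2-fold in either direction, where 0.780% of all genes were higher and 0.883% lower, and the members' median was 0.17. By a plain FPKM ratio of at least 2, with no pseudocount, 4 members rose at P1 (S100a13 in addition), where 8.46% of all genes rose and 1.26% fell. By that ratio 5 members rose at P2, where 12.0% of all genes rose and 2.08% fell, and 0 differed between P2 and P1, where 2.80% of all genes rose and 1.78% fell. Summed over the 10 genes, FPKM was 231, 489 and 529 at P0, P1 and P2. The comparisons of P1 and of P2 with P0 share the P0 library and are not independent of each other.

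**Figure D1:**
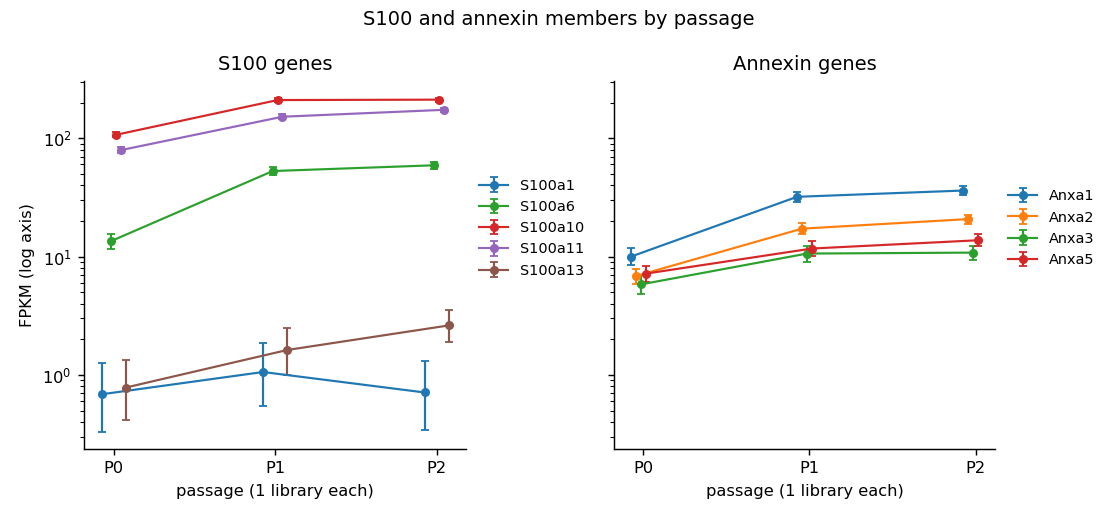
FPKM of each member (log axis) at P0, P1 and P2, 1 library per point, with bars for the exact 95% Poisson interval of the reads; S100a4, listed at 0 in all libraries, is not drawn. S100a10 and S100a11 lie above the others at every passage, and S100a6 has the largest step, to 52.8 FPKM at P1 against 13.5 FPKM at P0.

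S100a6 encodes calcyclin, a small calcium sensor found in proliferating fibroblasts and epithelial cells that binds the CacyBP protein. It measured 13.5, 52.8 and 59.0 FPKM at P0, P1 and P2, from 182, 552 and 766 reads. The P0 library was far below the other libraries, which lay close together. S100a6 rose 3.90-fold at P1 over P0 (interval 3.29 to 4.64) and 4.36-fold at P2 over P0 (interval 3.71 to 5.15), the largest differences among the members, at 1.89 and 2.05 on the log2(FPKM + 1) scale. The ratio of P2 to P1 was 1.12 with an interval of 1.001 to 1.25. Its place among genes with FPKM of at least 1 moved accordingly, to percentile 80.5 at P1 and 82.4 at P2, against 49.3 at P0.

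S100a10 and S100a11 were the most abundant members throughout. S100a10, the partner of annexin A2, measured 107, 210 and 212 FPKM at P0, P1 and P2 from 1466, 2241 and 2802 reads. Its ratio was 1.96 at P1 over P0 (interval 1.84 to 2.10) and 1.98 at P2 over P0 (interval 1.86 to 2.11), so it stayed just under the limit at log2(FPKM + 1) differences of 0.97 and 0.98 and is not counted as risen. S100a11, the partner of annexin A1, measured 79.3, 152 and 174 FPKM from 941, 1401 and 1988 reads. It was 1.91-fold higher at P1 than at P0 (interval 1.76 to 2.08), a difference of 0.93, and rose 2.19-fold at P2 over P0 (interval 2.02 to 2.37), a difference of 1.12. S100a10 hardly differed between P2 and P1, with a ratio of 1.01 (interval 0.953 to 1.07), whereas the S100a11 ratio of P2 to P1 was 1.14 (interval 1.07 to 1.23). Together they made up 92.5%, 86.7% and 86.1% of the summed FPKM of the 6 S100 genes at P0, P1 and P2, while the share of S100a6 was 6.73%, 12.7% and 13.2%.

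The promoter windows of S100a6 and S100a11 are shown because these genes gave the largest S100 rise and the rise of a highly expressed S100 gene. They hold 250 bases before to 50 bases after the start site, from RefSeq on build GRCm38.p6 in the direction of transcription, which is a later build than the one named for the expression files. S100a6 lies at chr3:90612644-90612943, plus strand, and S100a11 at chr3:93520246-93520545, plus strand. Capitals mark matches, on either strand, to the AP-1 motif TGANTCA, the TATA box TATAAA, the GC box GGGCGG or the E-box CACGTG.
S100a6: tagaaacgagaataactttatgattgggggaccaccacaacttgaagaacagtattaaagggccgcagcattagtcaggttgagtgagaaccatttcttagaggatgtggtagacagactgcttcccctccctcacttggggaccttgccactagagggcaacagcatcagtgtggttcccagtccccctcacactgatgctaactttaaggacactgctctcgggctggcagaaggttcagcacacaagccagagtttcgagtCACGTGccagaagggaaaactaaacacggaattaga
S100a11: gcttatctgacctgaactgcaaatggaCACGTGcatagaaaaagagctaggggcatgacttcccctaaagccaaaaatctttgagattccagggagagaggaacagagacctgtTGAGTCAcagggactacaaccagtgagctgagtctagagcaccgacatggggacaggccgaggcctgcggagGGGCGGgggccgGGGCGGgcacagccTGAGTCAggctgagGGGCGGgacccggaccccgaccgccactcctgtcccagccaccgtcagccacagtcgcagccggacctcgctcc
The S100a6 window held 1 E-box, at bases 15 to 20 after the start. The S100a11 window held 2 AP-1 matches, at -136 to -130 and -38 to -32, as well as 3 GC boxes and 1 E-box. Of 32851 RefSeq windows of the same length, 7.81% held the AP-1 motif, 13.6% the TATA box, 35.7% the GC box and 7.15% the E-box. A match is a description of the letters and not a measured binding site.

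The other 3 S100 members were low, at 42 reads or fewer in every library. S100a13, which takes part in the release of FGF1 from cells, measured 0.783, 1.63 and 2.62 FPKM at P0, P1 and P2 from 13, 21 and 42 reads. It rose at P2, with a difference of 1.02 and a ratio to P0 of 3.35 (interval 1.76 to 6.80). At P1 its ratio to P0 was 2.08, with an interval of 0.992 to 4.51 that holds 1, and a log2(FPKM + 1) difference of 0.56. Under median-of-ratios scaling and quantile normalization the difference at P2 was 0.98 and 0.77, below the limit.

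S100a1, known mainly as a calcium sensor of heart and skeletal muscle, measured 0.687, 1.06 and 0.712 FPKM from 10, 12 and 10 reads. Its 3 libraries overlapped within counting error, with ratios of 1.54 at P1 over P0 (interval 0.611 to 3.99) and 1.04 at P2 over P0 (interval 0.387 to 2.77). S100a1 and S100a13 stand head to head on chromosome 3, and their promoter windows share 204 bases. The ratio of S100a13 to S100a1 FPKM was 1.14, 1.53 and 3.68 at P0, P1 and P2, and their counting intervals overlapped at P0 and P1 but not at P2. The S100a13 window is printed because of these shared bases.
S100a13: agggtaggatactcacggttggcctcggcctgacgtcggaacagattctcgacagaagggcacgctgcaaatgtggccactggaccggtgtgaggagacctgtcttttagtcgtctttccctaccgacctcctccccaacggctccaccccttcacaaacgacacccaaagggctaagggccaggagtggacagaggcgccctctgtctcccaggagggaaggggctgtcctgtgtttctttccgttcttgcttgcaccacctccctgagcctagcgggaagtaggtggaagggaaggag
This window, at chr3:90514185-90514484, plus strand, held none of the 4 motifs, and neither did that of S100a1.

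S100a4, also called metastasin or fibroblast-specific protein, was listed at 0 in all 3 libraries. At these depths 3 reads on its mean transcript length would be worth 0.310, 0.398 and 0.321 FPKM at P0, P1 and P2, which is the level that a count of 0 allows. In GENCODE M21, 302 of the 584 exon bases of S100a4 are shared on the same strand with the gene model Gm42674, which is also listed at 0 in all 3 libraries. How shared bases were counted is not stated in the labels, and the part of this overlap in the 0 was not tested. The window of S100a4, at chr3:90603520-90603819, plus strand, is printed as that of the member with no reads, and its capitals mark a TATA box at -31 to -26.
S100a4: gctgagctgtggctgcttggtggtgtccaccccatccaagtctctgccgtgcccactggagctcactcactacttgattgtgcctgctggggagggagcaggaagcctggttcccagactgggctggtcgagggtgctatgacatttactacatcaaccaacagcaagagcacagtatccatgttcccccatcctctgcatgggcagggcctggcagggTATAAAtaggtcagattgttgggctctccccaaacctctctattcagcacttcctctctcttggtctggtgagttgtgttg

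Among the annexins the largest difference was that of Anxa1, the glucocorticoid-induced annexin whose secreted protein signals through formyl peptide receptors. Anxa1 measured 9.99, 32.0 and 36.1 FPKM at P0, P1 and P2. It rose 3.20-fold at P1 over P0 (interval 2.64 to 3.89) and 3.62-fold at P2 over P0 (interval 3.01 to 4.36), which was 1.59 and 1.76 on the log2(FPKM + 1) scale. The ratio of P2 to P1 was 1.13, with an interval of 0.988 to 1.29. The 151, 376 and 527 reads behind these values are the smallest whole numbers that fit, for a gene length of 651 bases. If the length were a multiple of this, the reads would be more and the intervals narrower.

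Anxa2, the membrane-bound partner of S100A10 and part of a cell surface receptor complex for plasminogen, measured 6.85, 17.2 and 20.7 FPKM from 180, 352 and 526 reads. It rose 2.51-fold at P1 over P0 (interval 2.09 to 3.03) and 3.03-fold at P2 over P0 (interval 2.55 to 3.61), with differences of 1.21 and 1.47. The level at P2 was 1.204-fold that at P1 (interval 1.05 to 1.38). Because Anxa2 changed more than S100a10, the ratio of S100a10 to Anxa2 FPKM was 15.6, 12.2 and 10.2 at P0, P1 and P2. The ratio of S100a11 to Anxa1 was 7.94, 4.75 and 4.81. In both partner pairs the S100 message was the more abundant in every library.

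The promoter windows of Anxa1 and Anxa2, the annexins that rose, are at chr19:20390622-20390921, minus strand, and chr9:69453433-69453732, plus strand, with capitals for the same 4 motifs.
Anxa1: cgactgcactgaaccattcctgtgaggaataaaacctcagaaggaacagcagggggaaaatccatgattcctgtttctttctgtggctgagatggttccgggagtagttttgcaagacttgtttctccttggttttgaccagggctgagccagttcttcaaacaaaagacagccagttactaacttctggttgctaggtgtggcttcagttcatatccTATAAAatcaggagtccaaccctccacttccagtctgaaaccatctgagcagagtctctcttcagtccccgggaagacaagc
Anxa2: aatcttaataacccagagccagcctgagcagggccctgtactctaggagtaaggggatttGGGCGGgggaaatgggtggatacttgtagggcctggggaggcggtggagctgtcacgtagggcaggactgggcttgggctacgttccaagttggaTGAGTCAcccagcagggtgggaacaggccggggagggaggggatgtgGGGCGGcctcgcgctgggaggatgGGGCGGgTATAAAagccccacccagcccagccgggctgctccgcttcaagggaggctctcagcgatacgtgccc
Anxa1 held a TATA box at -32 to -27 and none of the other 3 motifs. Anxa2 held 1 AP-1 match at -95 to -89, 3 GC boxes and a TATA box at -17 to -12. Of the 10 members, 8 had a window in the RefSeq table, and S100a10 and Anxa3 did not. Among the 8, S100a11 and Anxa2 held an AP-1 match and the other 6 did not. None of the 8 held a p53 site, searched on both strands as a pair of p53 half-sites at most 13 bases apart, which 0.0731% of all windows held. Anxa5 held 1 CArG box, a motif present in 1.63% of windows.

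**Figure D2:**
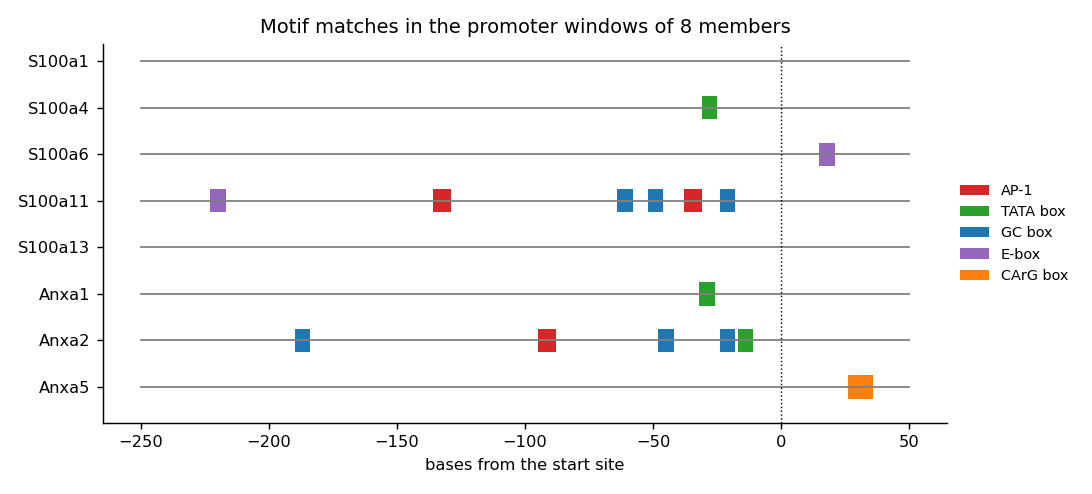
Motif matches on either strand in the promoter windows of 8 members, in bases from the start site (250 bases before to 50 after); each coloured box is 1 match. S100a11 and Anxa2 are the windows with AP-1 matches, and S100a1 and S100a13 have no match.

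Anxa3 and Anxa5 differed in the same direction by less than the limit. Anxa5, which binds phosphatidylserine and is widely used as a probe for dying cells, measured 7.18, 11.7 and 13.7 FPKM at P0, P1 and P2 from 157, 199 and 290 reads. Its ratio was 1.63 at P1 over P0 (interval 1.31 to 2.02) and 1.91 at P2 over P0 (interval 1.57 to 2.34), with differences of 0.63 and 0.85. Anxa3 measured 5.82, 10.6 and 10.8 FPKM from 115, 163 and 206 reads, with ratios of 1.82 at P1 over P0 (interval 1.43 to 2.33) and 1.86 at P2 over P0 (interval 1.47 to 2.35). For both genes the P0 library was the lowest, and the interval of P2 over P1 held 1. In GENCODE M21, Anxa3 shares 112 exon bases with the model Gm42603 on the same strand and Anxa2 shares 98 with the antisense gene Gm16144, both listed at 0 in all libraries.

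**Figure D3:**
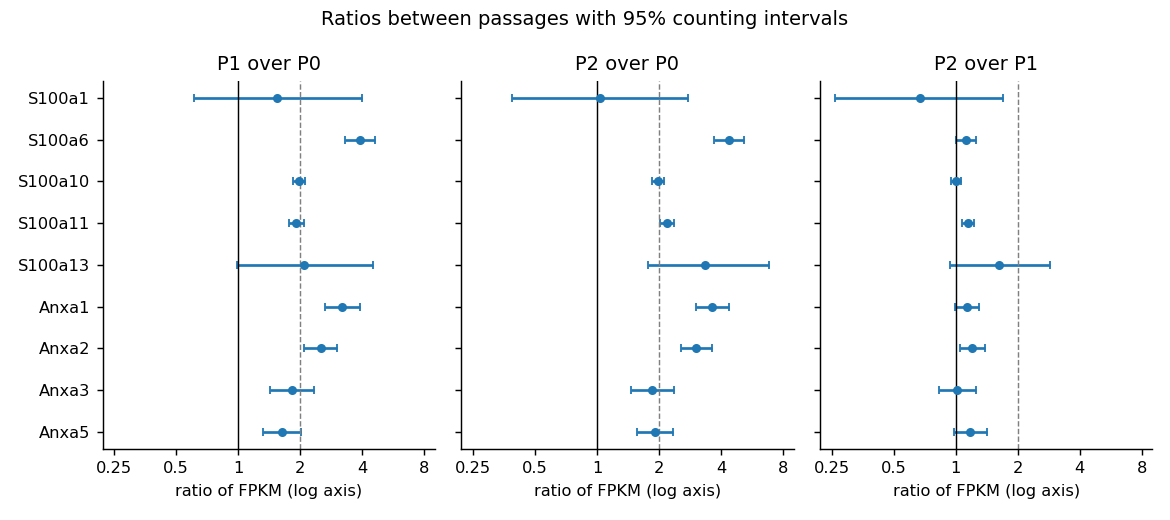
Ratio of FPKM (log axis) for P1 over P0, P2 over P0 and P2 over P1, for the 9 members with reads, with exact conditional 95% intervals for counting error; the solid line is 1 and the dashed line 2. In P2 over P0, 8 of 9 intervals lie above 1 and 4 above 2, while in P2 over P1 6 of 9 hold 1. The share of all genes with such intervals was not computed.

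Most of the difference was present by P1. Over counting error alone, 7 of the 9 members with reads had an interval above 1 at P1 over P0, 8 at P2 over P0 and 3 at P2 over P1 (S100a6, S100a11 and Anxa2). The share of all genes with such intervals was not computed, so these counts are not read as a trait of the members. With many reads an interval leaves out 1 even for a small difference. At P2 over P0 it was 1.04 to 1.17 for Anxa7 and 0.745 to 0.826 for Anxa6, which are not members. On the log2(FPKM + 1) scale, the difference of P1 from P0 was 98.9% of that of P2 from P0 for S100a10, 96.9% for Anxa3, 92.2% for S100a6 and 90.3% for Anxa1. It was 82.8% for S100a11, 82.7% for Anxa2, 74.7% for Anxa5 and 54.6% for S100a13. No test of these shares was possible with 1 library per passage.

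The order of levels was the same at P1 and P2: S100a10, S100a11, S100a6, Anxa1, Anxa2, Anxa5, Anxa3, S100a13, S100a1 and S100a4. At P0 Anxa5 came before Anxa2, at 7.18 and 6.85 FPKM, with overlapping counting intervals. Other neighbours with overlapping intervals were S100a6 and Anxa1 at P0, Anxa2 and Anxa3 at P0, Anxa5 and Anxa3 at P1 and P2, and S100a13 and S100a1 at P0 and P1. FPKM is per length, so these levels compare genes with each other as far as the lengths used upstream are right.

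**Figure D4:**
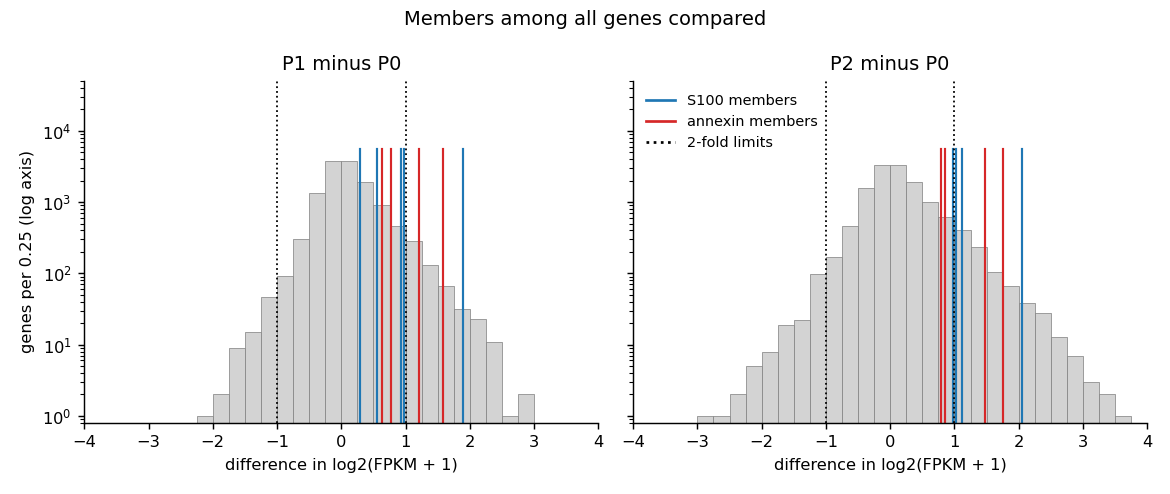
Histograms of the difference in log2(FPKM + 1) over all genes compared (grey, genes per 0.25 on a log axis), for P1 minus P0 and P2 minus P0. A line stands for each S100 member (blue) and annexin member (red) that was compared, and dotted lines mark the 2-fold limits. The members drawn lie right of 0 in both panels, between 0.29 and 1.89 at P1 and between 0.79 and 2.05 at P2. S100a4 is drawn in neither panel. S100a1, at a difference of 0.02 at P2, was not compared there and is drawn only at P1.

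The rest of the S100 family was mostly silent. Of 19 mouse S100 symbols looked up, 17 had a row, 7 reached FPKM 1 in 1 or more libraries and 5 were listed at 0 throughout, among them the myeloid genes S100a8 and S100a9. Besides the members, only S100a14 and S100a16 reached FPKM 1. S100a14, a gene of epithelial cells, had 0, 4 and 34 reads at P0, P1 and P2 and stood at 1.47 FPKM at P2, and the exact 95% interval of its P2 to P0 ratio starts at 9.04. S100a16 measured 4.51, 6.57 and 8.48 FPKM, with a ratio of P2 to P0 of 1.88 (interval 1.43 to 2.496). Of the 6 family genes compared between P2 and P0, 4 rose (S100a6, S100a11, S100a13 and S100a14) and 0 fell, where 6.72% of all genes rose and 1.16% fell. S100a13 and S100a14 entered this count only through the later libraries, so the count is a description and supports no direction for the family.

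The annexin family moved unevenly. Of its 12 genes, 9 reached FPKM 1, and 3 of these rose at P2 (Anxa1, Anxa2 and Anxa8) while 0 fell, where 6.72% of all genes rose and 1.16% fell. Anxa8 was under FPKM 1 at P0 and was compared only through its later levels. Anxa8, an annexin of squamous epithelium, measured 0.391, 3.16 and 6.04 FPKM from 14, 88 and 209 reads, and its ratio of P2 to P0 was 15.5 (interval 9.01 to 28.8). The annexins most abundant at P0 were not members. Anxa6, which has a doubled annexin core, measured 61.8, 53.5 and 48.5 FPKM at P0, P1 and P2, Anxa11 measured 40.03, 33.3 and 30.8 FPKM, and Anxa7 33.8, 39.0 and 37.2 FPKM. The ratio of P2 to P0 was 0.784 for Anxa6 (interval 0.745 to 0.826), 0.770 for Anxa11 (interval 0.722 to 0.822) and 1.10 for Anxa7 (interval 1.04 to 1.17). Summed FPKM of these 3 genes was 136, 126 and 117 at P0, P1 and P2, and that of the 4 members was 29.8, 71.5 and 81.4. The 4 members made up 17.4%, 34.4% and 38.5% of the summed FPKM of all annexins at P0, P1 and P2.

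**Figure D5:**
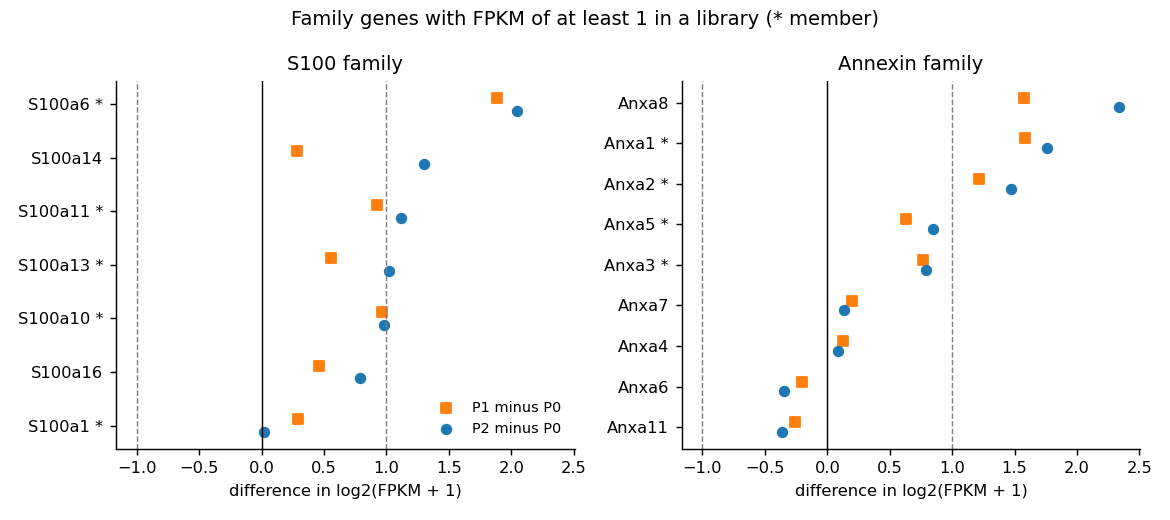
Difference in log2(FPKM + 1) for P1 minus P0 (squares) and P2 minus P0 (circles) of all S100 genes and annexins with FPKM of at least 1 in a library, members marked by an asterisk, dashed lines at the 2-fold limits. Anxa8 has the largest difference, 2.34 at P2, and Anxa6 and Anxa11 lie left of 0; S100a1 at P2 and S100a14 at P1 are drawn although they were under FPKM 1 in both libraries of that comparison.

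Of 21 listed genes that encode partners and receptors of these proteins, 14 reached FPKM 1. At P1 0 rose and 0 fell, where 4.12% of all genes rose, and at P2 1 of 14, or 7.14%, rose, where 6.72% of all genes rose. The medians were 0.14 at P1 and 0.26 at P2. The gene that rose was Plat, tissue plasminogen activator, which acts on plasminogen held at the cell surface, at 0.486, 1.203 and 2.31 FPKM. Plat was under FPKM 1 at P0 and was compared only through its later levels, as was Dysf, so the filter favoured a rise. Dysf, the gene of the membrane repair protein dysferlin, measured 0.551, 1.57 and 1.69 FPKM, with a ratio of P1 to P0 of 2.84 (interval 2.11 to 3.86), but its log2(FPKM + 1) differences of 0.73 at P1 and 0.80 at P2 stayed under the limit. Ahnak, a giant scaffold bound by the complex of S100A10 and annexin A2, measured 14.8, 23.9 and 21.1 FPKM, within the limit. Cacybp, the binding partner of calcyclin, measured 393, 299 and 282 FPKM, with a P2 to P0 difference of -0.47. The annexin A1 receptor genes Fpr1 and Fpr2 were listed at 0, and Ager, the receptor for several secreted S100 proteins, had 5, 6 and 7 reads.

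Genes whose pair of differences lay near that of S100a6, over the 3 libraries and among 9251 protein-coding genes that reached FPKM 5, were Sdc4, Fosl1, Pak6 and Wnt6. Sdc4, a cell surface proteoglycan, measured 49.0, 181 and 206 FPKM at P0, P1 and P2. Fosl1, a transcription factor of the FOS family, measured 2.09, 10.4 and 11.6 FPKM. Their distances in log2(FPKM + 1) were 0.02 for Sdc4 and Fosl1, 0.03 for Pak6 and 0.08 for Wnt6, and 21 genes lay within 0.25. Fosl1, Pak6 and Wnt6 were lower at P0 than S100a6, and this scale understates the change of low genes. By plain FPKM ratio to P0, these 3 rose more than S100a6 at both later passages. Their nearness is therefore stated on the log2(FPKM + 1) scale only, and distances on plain ratios were not computed. With 3 libraries the nearness of all these genes is a description of likeness only.

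Markers of other cell types moved beside the members, and their part in these results was not tested. The counts of markers below stand beside 6.72% of all genes that rose and 1.16% that fell at P2, and the lists hold markers that reached FPKM 1 only in the later libraries (3 of the 8 trophoblast markers compared and 2 of the 6 endoderm markers compared). In 3 other lists, 2 of 3 fibroblast, 2 of 3 blood and macrophage and 1 of 3 keratinocyte markers compared at P2 had reached FPKM 1 at P0. For the rest, Krt5 among them, the filter favoured a rise. Fibroblast markers, looked at since feeder layers can enter a stem cell harvest, summed to 8.10, 18.2 and 21.3 FPKM at P0, P1 and P2, mostly from Thy1 and Col1a1, which rose at P1 and P2. Of these 10 markers, 7 stayed under FPKM 1 in every library. Col3a1 was at 0.123 to 0.148 FPKM, Lum at 0.0208 to 0.0645 FPKM and Postn at 0. Blood and macrophage markers summed to 94.7, 207 and 235 FPKM, nearly all Laptm5 and Cd68, the 2 of 3 compared that rose at P2, while Csf1r had 1, 1 and 9 reads and Ptprc 5, 17 and 10. Trophoblast markers summed to 74.8, 124 and 161 FPKM, and 5 of the 8 compared rose at P2, among them Hand1, Krt19 and Krt8. Endoderm markers summed to 253, 447 and 525 FPKM, of which 2 of 6 compared rose at P2, Sparc and Col4a1, while Gata4 was at 2.78 to 3.49 FPKM and Foxa2 had 1 read in each library. Keratinocyte markers summed to 2.52, 8.16 and 7.80 FPKM, and 1 of 3 compared rose at P2. This was Krt5, at 2.79 FPKM at P2 against 0.0393 FPKM at P0. The median of the 3 differences was 0.98 and the smallest 0.52. Stem cell markers summed to 1820, 1528 and 1523 FPKM, with Klf4 the 1 of 6 that fell at P2. Of the 6, 5 had a difference from P0 below 0 at P1 and 5 at P2, with medians of -0.38 and -0.32.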

How the data were processed

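RNA was sequenced from 3 samples, 1 each from passages P0, P1 and P2. The deposited table holds FPKM values per gene ID. Per the submitters' processing notes, the tools were Bowtie2 2.0.6 and TopHat2 2.0.9 and the build was mm9, with counting program, annotation and strand setting not given in the sources used here. Of 50043 IDs, 49326 matched a symbol. The coordinates of promoter windows come only from RefSeq on GRCm38.p6, and chromosomes and exon overlaps from GENCODE M21.

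Library totals were found as the whole number that turns most low FPKM of genes with 1 transcript into whole reads (relative tolerance 1e-09). This held for 94.1%, 94.1% and 94.5% of such genes at P0, P1 and P2, and for 0 such genes with slightly larger totals. Reads per gene followed with the length nearest to the mean GENCODE M21 transcript length. Differences are of log2(FPKM + 1), with no test. Ratios carry exact conditional 95% intervals, and a count of 0 is taken to allow 3 reads. With no molecular identifiers, reads are not separate molecules, so both cover counting error only. The steps were checked on simulated data.

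The members and lists were chosen with earlier results of these data known. Named genes are the members, Pold3, family, partner and marker genes that passed 2-fold or define a list or its level, and the 5 genes nearest to the member with the largest P2 to P0 difference; some of these results are not reported here. Differences were recomputed with quantile normalization, with median-of-ratios factors, with libraries rescaled to 1000000, with a pseudocount of 0.1, with a floor of 5 FPKM or no floor, without genes of short RNA and without unnamed models, and, chosen after seeing the data, a plain FPKM ratio of at least 2. The software was matplotlib 3.10.9, pandas 2.3.3, scipy 1.17.1 and numpy 2.4.6 under Python 3.11.15.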

Additional observations from a re-analysis of the deposited data

How the results depend on the processing

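No paired analysis was possible because there is 1 library per passage, and for the same reason no replicate could be left out. Over 201 recomputed differences of single members, 0 changed sign and 3 changed side of the 2-fold limit, all of S100a13: its difference at P2 over P0 was 0.98 under median-of-ratios scaling and 0.77 under quantile normalization, and its ratio at P1 over P0 passed 2 with no pseudocount. The count of members that rose was 3 or 4 at P1 and 4 or 5 at P2 under every alternative run, and 0 members fell. The members' median at P2 over P0 was 1.36 with a pseudocount of 0.1 and 1.36 on plain ratios. Counts over all genes depended more on the setting, and their causes were not tested. With a pseudocount of 0.1, 1079 genes were higher and 175 lower at P1, 1569 and 286 at P2, and 370 and 265 at P2 over P1. These were out of 13288, 13472 and 13585 genes compared. A floor of FPKM 5, which compares fewer genes (9407, 9505 and 9464), gave 310 and 32, 512 and 87, and 41 and 43. Plain ratios, with 13213, 13385 and 13512 genes compared, gave 1118 and 166, 1607 and 279, and 378 and 240. Rescaling to 1000000 gave 122 lower at P1 and 183 higher and 197 lower at P2 over P1. Quantile normalization gave 129 lower at P1 and 260 at P2, and the share of rises among called genes was 74.9% and 70.5% against 88.2% and 85.3% as reported; it moved the median of all genes at P2 over P0 to -0.05, against 0.07 as reported. Without short RNA genes and unnamed models, which also compares fewer genes, 47, 87 and 35 were lower at P1 over P0, P2 over P0 and P2 over P1. Depth limits S100a1, S100a4 and S100a13 most, with at most 42 reads in a library.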
